A study of Mus musculus with 5 samples.

Results

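The genes described here encode subunits of protein phosphatase 1 (PP1) and of calcineurin, the serine/threonine phosphatases that remove phosphate from proteins at synapses. The group holds 10 of the 15093 genes listed, all with a mean high enough to be tested, in a translating ribosome affinity purification (TRAP) experiment on *Drd2* neurons of the mouse central amygdala (CeA), and its members were found by gene name. *Ppp1cc* was chosen by its difference between the 2 groups of libraries, so its difference is given as a description with no p-value. The other 9 genes were picked as subunits of the same enzymes, with earlier results of these data known.

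PP1 and calcineurin work as catalytic subunits held by regulatory partners. A PP1 catalytic subunit pairs with a regulatory protein that places it in the cell or blocks its active site, and calcineurin joins a catalytic A subunit, a calcium-binding B subunit and calmodulin, so that it is switched on by calcium. In striatal-type neurons the enzymes are linked, since inhibitor-1 and its relative DARPP-32 block PP1 once protein kinase A has phosphorylated them, and calcineurin can remove that phosphate.

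All animals were adult *Drd2*-TRAP mice, which carry a *Drd2*-Cre transgene and a floxed-stop EGFP/Rpl10a allele at Rosa26 under a CAG promoter, so that ribosomes are tagged wherever Cre is or has been active. Of the 5 libraries, 3 came from fear conditioned mice (FC, replicates 2, 3 and 4) and 2 from home cage mice (HC, replicates 6 and 7), and each pooled bilateral CeA punches from 3 animals taken 2 h after the session. GEO's labels call the controls home cage animals and place collection after extinction, whereas the results text of the study describes tone exposure without shock and collection after conditioning, and its methods abbreviate the controls as HC. The labels' names are used here. Tagged ribosomes were purified, so the values measure ribosome-bound RNA in the tissue punch, in which fewer tagged cells and less bound RNA per cell cannot be told apart. Recovered reads on genes were 21070588, 25022225 and 19988438 in FC replicates 2, 3 and 4 and 27937520 and 19605318 in HC replicates 6 and 7.

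The libraries differed in more than the phosphatase genes. The 6 genes of a striatal-type *Drd2* neuron list, among them *Drd2*, *Adora2a*, *Penk*, *Gpr6* and *Ppp1r1b*, all lay above both HC libraries in every FC library, as did 20.2% of all genes tested. Their summed values were 21642, 21475 and 22827 CPM in FC against 7930 and 12930 CPM in HC. CPM here are read counts divided by 1 factor for each library, which brings the genes of a library to a sum between 932938 and 1042030. *Drd2* itself (ENSMUSG00000032259) was at 326, 375 and 555 CPM in FC and 128 and 262 CPM in HC, so the defining marker of the labelled cells was present in all 5 libraries. The summed values of the choroid plexus list went the other way, at 57.8, 110 and 62.6 CPM in FC against 1006 and 1415 CPM in HC. *Ttr*, which encodes transthyretin, made up most of the HC sums at 913 and 1320 CPM, and was at 0.522, 22.1 and 0.348 CPM in FC. Of the 5 genes tested in that list, 3 lay below both HC libraries in every FC library, beside 16.1% of all genes tested. In the other 2 the groups overlapped. HC replicate 7 also listed 2681 of the 15093 genes at 0, where the other 4 libraries listed 159 to 976. The part of these differences in the results below was not tested.

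A gene's level is compared with that of another gene only as CPM per kb of the deposited gene length. Groups were compared with limma on log2(value + 1), and a gene was called at an adjusted p under 0.05 with an absolute log2 fold change over 0.5. None of the 13560 genes tested passed both cutoffs (0%), although 2280 (16.8%) had an unadjusted p under 0.05. The edgeR quasi-likelihood test on recovered reads called 0 genes (0%), with 2039 at an unadjusted p under 0.05, while DESeq2 on the same reads called 501 genes higher in FC (3.69%) and 516 lower (3.81%). An exact permutation test of 3 against 2 libraries cannot give a p below 0.1, so for single genes the order of the libraries is given. Over all genes tested, 20.2% lay above both HC libraries in every FC library and 16.1% lay below both.

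Against that background, 4 of the 10 members (*Ppp1ca*, *Ppp1cc*, *Ppp1r1a* and *Ppp3r1*) lay above both HC libraries in every FC library, none lay below, and in 6 the groups overlapped. Without *Ppp1cc*, whose place was fixed by its choice, the count was 3 of 9. The median log2 fold change of the members was 0.22, or 0.20 without *Ppp1cc*, beside a median of 0.08 over all genes tested.

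**Figure D1:**
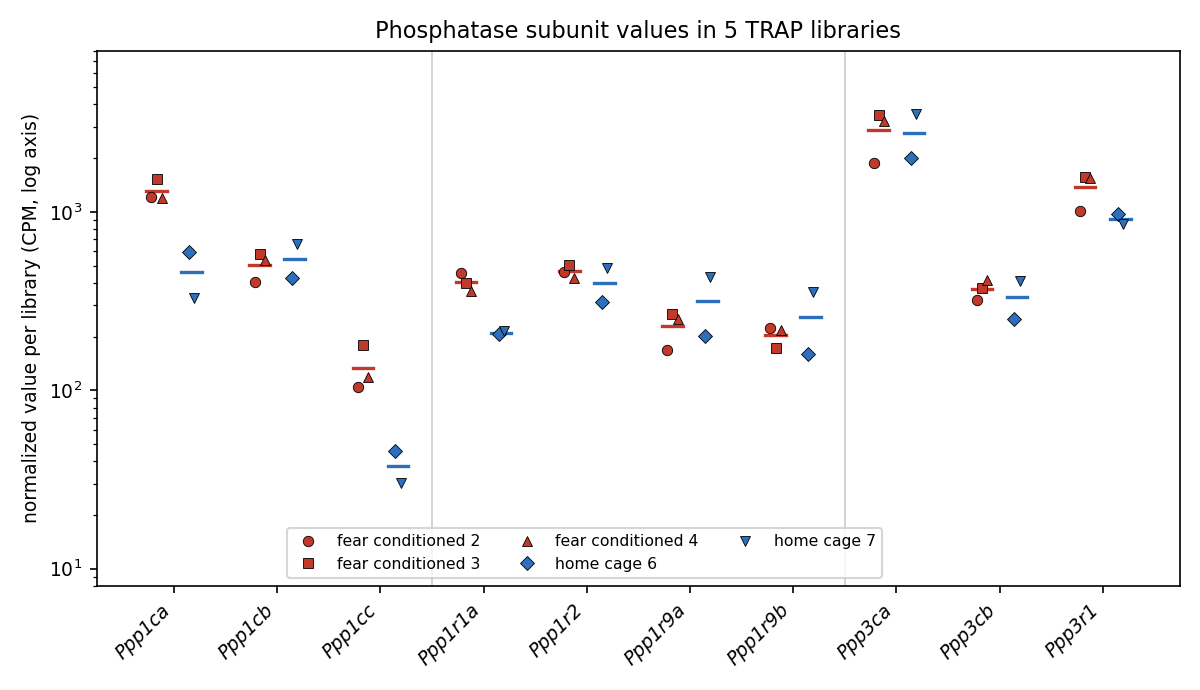
Normalized value (CPM, log axis) of each member in the 3 FC libraries (red) and the 2 HC libraries (blue), in the order catalytic PP1 subunits, PP1 regulators and calcineurin subunits. Short lines are group means. The red and blue points separate for *Ppp1ca*, *Ppp1cc*, *Ppp1r1a* and *Ppp3r1* and overlap for the other 6 genes.

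The catalytic PP1 subunits are made from 3 genes with closely related products, *Ppp1ca* (PP1 alpha), *Ppp1cb* (PP1 beta) and *Ppp1cc* (PP1 gamma). *Ppp1cc* (ENSMUSG00000004455) was at 104, 179 and 119 CPM in FC replicates 2, 3 and 4 and at 45.4 and 30.3 CPM in HC replicates 6 and 7. These values rested on 2198, 4289 and 2394 recovered reads in FC and on 1360 and 575 in HC. FC replicate 3 was the highest library and HC replicate 7 the lowest, and the lowest FC library was above the higher of the HC libraries. The log2 fold change was 1.78 (SE 0.34). Since the gene was chosen by this difference, the SE does not allow for that choice and no interval is given.

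*Ppp1ca* (ENSMUSG00000040385) also had its highest value in FC replicate 3 and its lowest in HC replicate 7. It was at 1205, 1527 and 1195 CPM in FC and at 597 and 327 CPM in HC, or 1309 ± 189 (SD, n = 3) against 462 ± 190 (SD, n = 2). Every FC library held at least the 1195 CPM of replicate 4, about 2 times the 597 CPM of the higher HC library. Its log2 fold change was 1.55 (SE 0.32, 95% interval 0.78 to 2.33), which did not pass in limma (adjusted p = 0.197, the smallest that any gene reached) and passed in DESeq2 (adjusted p = 0.000377).

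The third paralog did not separate the groups. *Ppp1cb* (ENSMUSG00000014956) was at 406, 577 and 535 CPM in FC and at 428 and 659 CPM in HC, or 506 ± 89.5 (SD, n = 3) against 544 ± 163 (SD, n = 2). The highest and the lowest library were HC replicate 7 and FC replicate 2, and the groups overlapped. The log2 fold change was -0.09 (SE 0.29, 95% interval -0.78 to 0.61, adjusted p = 0.896 in limma).

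Because reads of similar genes can be assigned to the wrong copy, and how the authors handled such reads is not given in the sources used here, *Ppp1cc* was set beside its paralogs in each library. The CPM of the 3 genes summed to 1715, 2283 and 1849 in FC and to 1070 and 1017 in HC. The log2 fold change of the sum was 0.89 (SE 0.25). The FC sums were all above the HC sums. Since *Ppp1cc* was part of that sum and was selected on this contrast, the sum too is given without a p-value or an interval.

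Per kb of gene length, *Ppp1cc* made up 3.05, 4.04 and 3.42% of the 3 paralogs in FC and 2.52 and 2.505% in HC, or 3.502 ± 0.50% (SD, n = 3) against 2.51 ± 0.0095% (SD, n = 2). *Ppp1ca* held most of the total, at 90.9, 89.3 and 88.8% in FC and 85.4 and 69.9% in HC. The share of *Ppp1cb* was 6.01, 6.63 and 7.81% in FC and 12.04 and 27.6% in HC. The shares of *Ppp1ca* and *Ppp1cc* were thus higher, and that of *Ppp1cb* lower, in every FC library than in either HC library. Since *Ppp1cc* was selected on this contrast, the separation of its share is a description only. HC replicate 7 stood farthest from the rest in the shares of *Ppp1ca* and *Ppp1cb*, and FC replicate 3 in that of *Ppp1cc*.

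The ratio of *Ppp1ca* to *Ppp1cc* overlapped between the groups. Per kb, *Ppp1ca* was 29.9, 22.1 and 26.0 times *Ppp1cc* in FC and 33.9 and 27.9 times in HC. The log2 ratio of *Ppp1cc* to *Ppp1cb* per kb was -0.98, -0.71 and -1.19 in FC and -2.26 and -3.46 in HC. The groups separate in this ratio, but it carries the difference by which *Ppp1cc* was chosen and is no separate result. On log2 values over the 5 libraries, Pearson's r with *Ppp1cc* was 0.98 for *Ppp1ca* and -0.15 for *Ppp1cb*, a description over 5 points that share library and group. Whether some reads of *Ppp1ca* were counted under *Ppp1cc* cannot be told from values per gene.

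**Figure D2:**
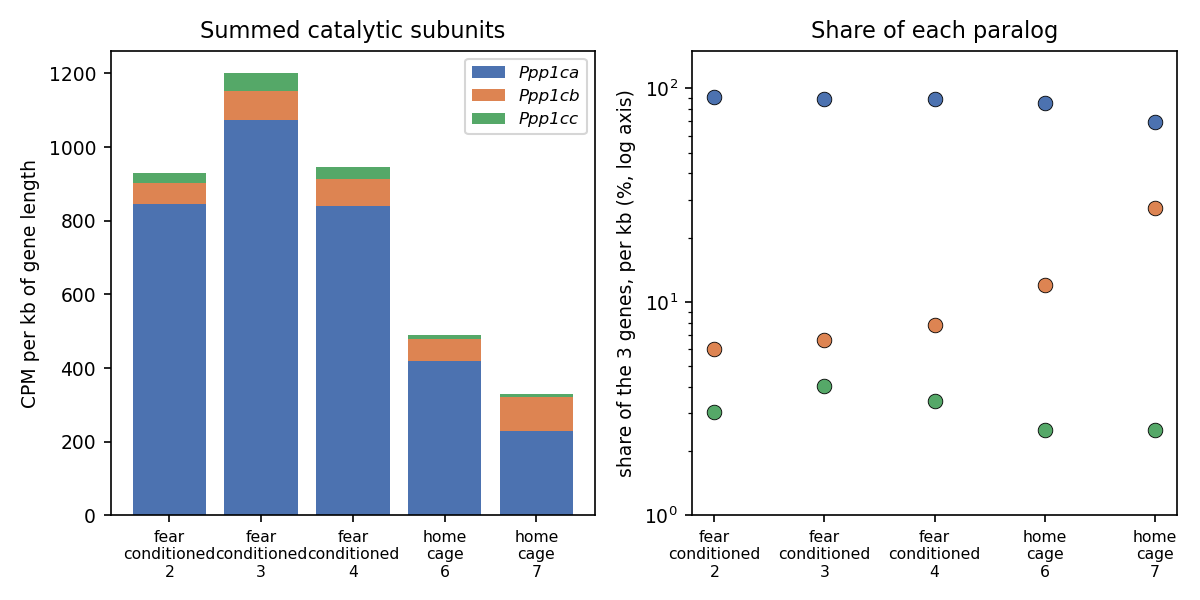
Left, CPM per kb of gene length of the 3 catalytic PP1 genes, stacked for each library. Right, the share of each gene in that total (%, log axis). The stacks of all 3 FC libraries are taller than both HC stacks, *Ppp1ca* fills most of each, and the share of *Ppp1cb* is highest in HC replicate 7, at 27.6%.

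The promoters of *Ppp1cc* and *Ppp1cb* are shown since *Ppp1cc* separated the groups and *Ppp1cb* did not; no window for *Ppp1ca* was used here. Each is the 250 bases before the RefSeq start site (assembly GRCm38.p6, plus strand of chromosome 5), at chr5:122158025-122158274 for *Ppp1cc* and chr5:32458720-32458969 for *Ppp1cb*, written 5′ to 3′ with every GC box (CCGCCC, or GGGCGG on the other strand) in capitals.
Ppp1cc: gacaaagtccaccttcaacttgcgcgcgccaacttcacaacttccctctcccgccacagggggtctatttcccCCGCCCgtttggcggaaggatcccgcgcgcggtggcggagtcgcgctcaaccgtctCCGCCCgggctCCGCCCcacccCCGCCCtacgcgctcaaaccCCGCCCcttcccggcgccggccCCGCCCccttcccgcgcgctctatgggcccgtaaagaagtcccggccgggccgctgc
Ppp1cb: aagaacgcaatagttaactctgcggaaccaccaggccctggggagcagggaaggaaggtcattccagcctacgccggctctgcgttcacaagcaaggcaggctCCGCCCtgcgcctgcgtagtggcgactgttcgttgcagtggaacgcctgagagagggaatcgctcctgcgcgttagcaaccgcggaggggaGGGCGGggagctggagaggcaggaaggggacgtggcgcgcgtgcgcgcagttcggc
Both windows are rich in G and C, with 72% in *Ppp1cc* and 65.2% in *Ppp1cb*. *Ppp1cc* holds 6 GC boxes and *Ppp1cb* 2. *Ppp1r2*, whose groups overlapped, also holds 6, and *Ppp3r1*, whose groups did not, holds 4. Of the other overlapping members with a window, *Ppp3cb* holds 2, *Ppp1r9a* 1 in each window and *Ppp1r9b* 0. A link between these counts and the group differences was not tested. A CRE half-site (TGACG, or CGTCA on the other strand) and a TATA box (TATAAA on either strand) were found in neither. Of 32851 promoter windows of the same length, 32.7% hold a GC box, 17.8% a CRE half-site and 12.4% a TATA box. Windows were found for 7 members, among which 6 hold a GC box, 1 (*Ppp3r1*) a CRE half-site and 1 (*Ppp1r2*) a TATA box. These matches describe the letters of the windows and show no binding.

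The inhibitors of PP1 came next. *Ppp1r1a* (ENSMUSG00000022490) encodes inhibitor-1, which blocks PP1 once protein kinase A has phosphorylated it. It was at 452, 402 and 359 CPM in FC and at 206 and 214 CPM in HC, or 404 ± 46.4 (SD, n = 3) against 210.0 ± 5.69 (SD, n = 2). The groups were well separated and the HC libraries nearly equal. Its log2 fold change was 0.94 (SE 0.21, 95% interval 0.44 to 1.44, adjusted p = 0.197 in limma and 0.00415 in DESeq2), and it was 0.91 without HC replicate 6 and 0.96 without HC replicate 7.

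*Ppp1r2* (ENSMUSG00000047714) encodes inhibitor-2, which binds the catalytic subunit directly. Its values were 460, 505 and 425 CPM in FC and 313 and 488 CPM in HC, with HC replicate 7 inside the FC range. Its log2 fold change was 0.24 (SE 0.26, 95% interval -0.39 to 0.87, adjusted p = 0.655 in limma). A processed copy, *Ppp1r2-ps4*, was listed at no more than 2.43 CPM in any library. Per kb, *Ppp1r1a* was 3.38, 2.74 and 2.91 times *Ppp1r2* in FC and 2.26 and 1.51 times in HC, so the balance of the inhibitors also separated the groups.

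DARPP-32, the relative of inhibitor-1 made in striatal-type neurons, is encoded by *Ppp1r1b* (ENSMUSG00000061718), which is not a member and was also on the *Drd2* neuron list. It was at 3283, 3505 and 3583 CPM in FC and at 1076 and 2411 CPM in HC. All FC libraries lay above both HC libraries, with a log2 fold change of 1.10 (SE 0.39, adjusted p = 0.255 in limma). That value was 0.52 without HC replicate 6 and 1.68 without HC replicate 7, a wider spread than that of *Ppp1r1a*.

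The targeting subunits neurabin and spinophilin bind actin and hold PP1 in dendritic spines. *Ppp1r9a* (neurabin, ENSMUSG00000032827) was at 169, 268 and 251 CPM in FC and at 202 and 429 CPM in HC, and *Ppp1r9b* (spinophilin, ENSMUSG00000038976) at 224, 173 and 218 CPM in FC and 161 and 355 CPM in HC. In both genes HC replicate 7 was the highest library, and HC replicate 6 was below at least 2 of the FC libraries. The log2 fold changes were -0.39 (SE 0.38, 95% interval -1.32 to 0.55, adjusted p = 0.630 in limma) for *Ppp1r9a* and -0.23 (SE 0.37, 95% interval -1.11 to 0.66, adjusted p = 0.775) for *Ppp1r9b*. Their direction depended on the control library, at -0.93 and -0.80 without HC replicate 6 and at 0.16 and 0.34 without HC replicate 7. Per kb, *Ppp1r9b* was 1.85 to 3.77 times *Ppp1r9a* in FC and 2.27 and 2.36 times in HC, which overlapped.

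Calcineurin has 2 A subunits and 1 B subunit among the members. *Ppp3ca* (A alpha, ENSMUSG00000028161) was at 1872, 3499 and 3218 CPM in FC and 2010 and 3538 CPM in HC, or 2863 ± 869 (SD, n = 3) against 2774 ± 1080 (SD, n = 2). Each group had a low library and at least 1 much higher one, and the spread within groups was larger than the difference between them. The log2 fold change was 0.05 (SE 0.42, 95% interval -0.96 to 1.06, adjusted p = 0.959 in limma). The interval is wide enough to hold a difference of almost 1 on the log2 scale in either direction.

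*Ppp3cb* (A beta, ENSMUSG00000021816) was at 322, 375 and 415 CPM in FC and at 251 and 412 CPM in HC. The groups overlapped, with a log2 fold change of 0.20 (SE 0.28, 95% interval -0.48 to 0.87, adjusted p = 0.744 in limma). *Ppp3r1* (B1, ENSMUSG00000033953), the calcium-binding partner of both, was at 1011, 1570 and 1555 CPM in FC and at 976 and 855 CPM in HC. FC replicate 2 lay just above HC replicate 6, so the groups did not overlap but nearly met. The log2 fold change was 0.56 (SE 0.29, 95% interval -0.13 to 1.26, adjusted p = 0.375 in limma), and neither limma nor DESeq2 called it.

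Within calcineurin the balance of subunits overlapped between the groups. *Ppp3ca* supplied 88.8, 92.7 and 91.3% of the A subunit RNA per kb in FC and 91.6 and 92.1% in HC. The summed A subunits were 1.20, 1.38 and 1.30 times *Ppp3r1* per kb in FC and 1.29 and 2.57 times in HC, and only HC replicate 7 stood apart. The remaining A subunit, *Ppp3cc* (A gamma, ENSMUSG00000022092), which is not a member, was at 20.7, 24.7 and 19.0 CPM in FC and 13.0 and 3.01 CPM in HC. Its log2 fold change of 1.58 (SE 0.64, adjusted p = 0.293 in limma) was 2.48 without HC replicate 6 and 0.67 without HC replicate 7. *Ppp3r2*, the other B subunit gene, was not found by name and was not analysed here.

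**Figure D3:**
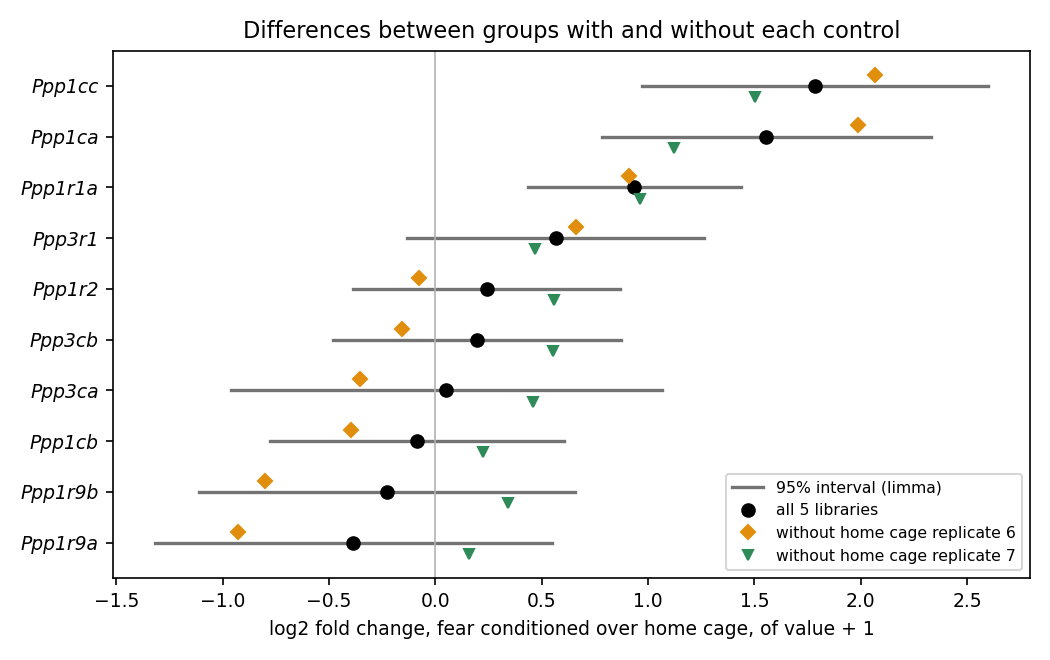
Log2 fold change of value + 1, FC over HC, of each member from limma (black points, bars 95% intervals), with the value after leaving out HC replicate 6 (orange diamonds) or HC replicate 7 (green triangles). *Ppp1cc*, *Ppp1ca*, *Ppp1r1a* and *Ppp3r1* stay above 0 under both, which follows from their groups not overlapping. The other 6 genes have the diamond below 0 and the triangle above it. *Ppp1cc* was chosen by this difference, so its bar is a description and no test.

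The size of the differences depended on which HC library was used. Leaving out HC replicate 6 or HC replicate 7 gave log2 fold changes of 1.99 and 1.12 for *Ppp1ca*, 2.07 and 1.50 for *Ppp1cc*, and 0.66 and 0.47 for *Ppp3r1*. The 6 overlapping members had opposite signs under the 2 choices, for example -0.40 and 0.22 for *Ppp1cb* and -0.36 and 0.46 for *Ppp3ca*. A fit with 1 HC library takes its spread from the FC libraries alone.

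Per kb of gene length and over all libraries, the members ranked in the order *Ppp1ca*, *Ppp3ca*, *Ppp3r1*, *Ppp1r1a*, *Ppp1r2*, *Ppp1cb*, *Ppp3cb*, *Ppp1r9b*, *Ppp1cc* and *Ppp1r9a*. *Ppp1ca* averaged 920 CPM per kb in FC and 325 in HC, and *Ppp3ca* 509 and 493, so in the HC means *Ppp3ca* was the higher. At the low end *Ppp1cc* averaged 36.4 CPM per kb in FC and 10.3 in HC, and *Ppp1r9a* 15.7 and 21.7, so the last places were exchanged in HC as well, and so were those of *Ppp1r9b* (50.5) and *Ppp3cb* (43.3). In FC the libraries of neighbours in the order did not overlap for *Ppp1ca* and *Ppp3ca*, *Ppp1r1a* and *Ppp1r2*, *Ppp1r2* and *Ppp1cb*, *Ppp1cb* and *Ppp3cb*, or *Ppp1cc* and *Ppp1r9a*, and all other neighbours overlapped. In HC they did not overlap for *Ppp3ca* and *Ppp3r1*, *Ppp3r1* and *Ppp1r1a*, *Ppp1r1a* and *Ppp1r2*, *Ppp1cb* and *Ppp3cb*, *Ppp1r9b* and *Ppp1cc*, or *Ppp1cc* and *Ppp1r9a*, the last pair in the reverse order. By mean CPM per kb, *Ppp1ca* stood at percentile 99.7 of the genes tested that have a length, *Ppp3ca* at 99.4, *Ppp3r1* at 99.0 and *Ppp1r1a* at 98.3, while *Ppp1cc* stood at 80.5 and *Ppp1r9a* at 74.1.

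The members that separated the groups were also the 4 shortest. *Ppp1r1a* (1288 bases), *Ppp1ca* (1423), *Ppp3r1* (3222) and *Ppp1cc* (3676) lay above both HC libraries in every FC library, and the 6 members from *Ppp1r2* (4434 bases) to *Ppp1r9a* (14561 bases) overlapped. Across the 10 members, Spearman's rho between length and log2 fold change was -0.81, and across 13551 genes with a length it was -0.12, both as descriptions over genes that share libraries. The members include *Ppp1cc*, which was chosen by its difference, and rho without it was not computed. Without HC replicate 6 and without HC replicate 7 rho was -0.81 and -0.73 for the members and -0.05 and -0.18 for all genes. Genes within 10% of a member's length had a median log2 fold change of 0.20 for *Ppp1ca*, 0.20 for *Ppp1cc*, 0.17 for *Ppp1r1a* and 0.20 for *Ppp3r1*. All were below the member's own value, which for *Ppp1cc* is the difference it was chosen by. Of the overlapping members, *Ppp1cb* (-0.09 beside a median of -0.08), *Ppp1r9a* (-0.39 beside -0.44), *Ppp3ca* (0.05 beside 0.05) and *Ppp1r2* (0.24 beside 0.15) lay near the median for their length. *Ppp1r9b* (-0.23 beside 0.09) and *Ppp3cb* (0.20 beside -0.17) had the opposite sign to it. The part of gene length in the members' values was not tested.

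**Figure D4:**
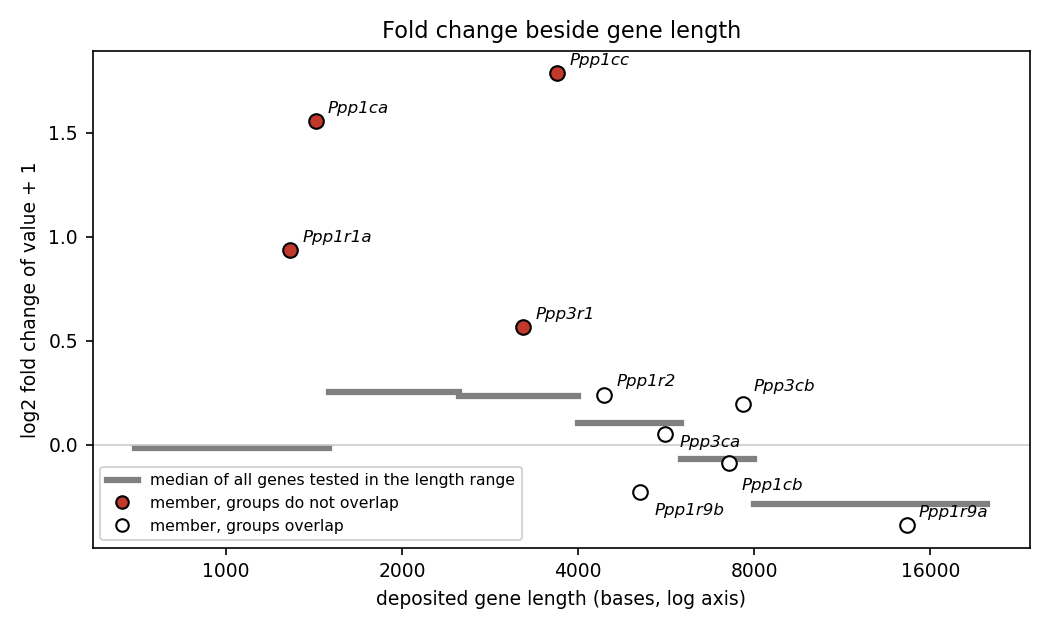
Log2 fold change of value + 1 against deposited gene length (bases, log axis) for the 10 members, filled where the groups do not overlap, with grey lines for the median of all genes tested in each length range. The 4 filled points lie at 1288 to 3676 bases and above the grey lines, whose medians run from -0.02 in the shortest range through 0.26 to -0.28 beyond 8000 bases. *Ppp1cc*, 1 of the filled points, was chosen by its difference.

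The wider families were described from lists of 93 genes, of which 87 were matched and 85 tested. All FC libraries lay above both HC libraries in 28 of the 85 (32.9%, against 20.2% of all genes) and below both in 9 (10.6%, against 16.1%), with a median log2 fold change of 0.24. The 28 include *Ppp1cc*, which was chosen by this difference, and *Nfatc1*, which passed the filter on mean value through its FC libraries alone. The members are among the 85 genes, and limma called none of the 85 after adjustment over all genes. Among 7 PP1 inhibitors tested, 3 were higher in every FC library (*Ppp1r1a*, *Ppp1r1b* and *Ppp1r11*), none was lower, and the median was 0.61. Of 27 PP1 targeting and scaffold subunits, 5 were higher and 4 lower, with a median of 0.12 that became -0.59 without HC replicate 6 and 0.63 without HC replicate 7.

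Among the targeting subunits, *Ppp1r12c* (ENSMUSG00000019254), a myosin phosphatase targeting subunit, was at 178, 208 and 172 CPM in FC and at 78.1 and 66.5 CPM in HC. Its groups were far apart, with a log2 fold change of 1.35 (SE 0.22, adjusted p = 0.197 in limma and 3.3e-05 in DESeq2). *Ppp1r37* was at 19.4, 24.4 and 28.7 CPM in FC and 12.2 and 5.64 CPM in HC (log2 fold change 1.41, or 1.91 without HC replicate 6 and 0.92 without HC replicate 7). At a few CPM, *Ppp1r3d*, a glycogen-targeting subunit, and *Phactr2*, an actin-binding PP1 regulator, were also higher in every FC library, with log2 fold changes of 1.55 and 1.37. *Ppp1r3d* was listed at 0 in HC replicate 7, and its value was 2.48 without HC replicate 6 and 0.63 without HC replicate 7, while that of *Phactr2* was 1.95 and 0.80. *Ppp1r26* lay below both HC libraries in every FC library, at 6.78, 4.50 and 4.97 CPM against 15.8 and 10.2 CPM (log2 fold change -1.11).

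Of 11 calcineurin regulators and anchors, 6 were higher in every FC library and 1, *Cabin1*, was lower. Among all genes tested the shares were 20.2% and 16.1%. The median log2 fold change of the 11 was 0.29, and it became 0.17 without HC replicate 6 and 0.50 without HC replicate 7. *Rcan1* (ENSMUSG00000022951), a feedback inhibitor of calcineurin whose transcription calcineurin itself can drive, was at 172, 190 and 161 CPM in FC and at 65.8 and 113 CPM in HC. Every FC library was above both HC libraries, with a log2 fold change of 1.00 (SE 0.29, adjusted p = 0.217 in limma). That value was 0.61 without HC replicate 6 and 1.39 without HC replicate 7. *Rcan3* reached a log2 fold change of 2.76 because HC replicate 7 listed it at 0, and without that library the value was 0.23. The calmodulin gene *Calm2* was also among the 6.

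The NFAT family includes factors that calcineurin dephosphorylates, and 4 of its genes were tested. Of these, 2 were higher and none lower in every FC library, beside 20.2% and 16.1% of all genes tested. *Nfatc1* was at 1.47, 2.58 and 1.84 CPM in FC and at 0 in both HC libraries, at least 15.2-fold higher than the HC floor of 3 reads per library. It passed the filter on mean value through its FC libraries alone, so its place in the count was fixed by the filter. *Nfatc2* was at 37.0, 50.2 and 51.5 CPM in FC and at 28.1 and 26.5 CPM in HC.

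Of 29 other serine/threonine phosphatase subunits, 8 were higher in every FC library and 4 lower, beside 20.2% and 16.1% of all genes tested. Their median log2 fold change of 0.18 became 0.10 without HC replicate 6 and 0.11 without HC replicate 7. *Ppm1e*, a metal-dependent phosphatase, was at 20.5, 17.5 and 18.8 CPM in FC and at 91.3 and 47.2 CPM in HC (log2 fold change -1.74, SE 0.39, adjusted p = 0.197 in limma and 0.00155 in DESeq2). *Ppp4r1*, a regulatory subunit of protein phosphatase 4, and *Ppp2r1b*, a scaffold of protein phosphatase 2A, were also below both HC libraries, with log2 fold changes of -1.59 and -1.53. *Ppp2r5e*, a regulatory subunit of protein phosphatase 2A, lay above them at 1.25. *Ppp6r2* had a log2 fold change of 2.31, which was 0.54 without HC replicate 7, where it was listed at 0.264 CPM.

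**Figure D5:**
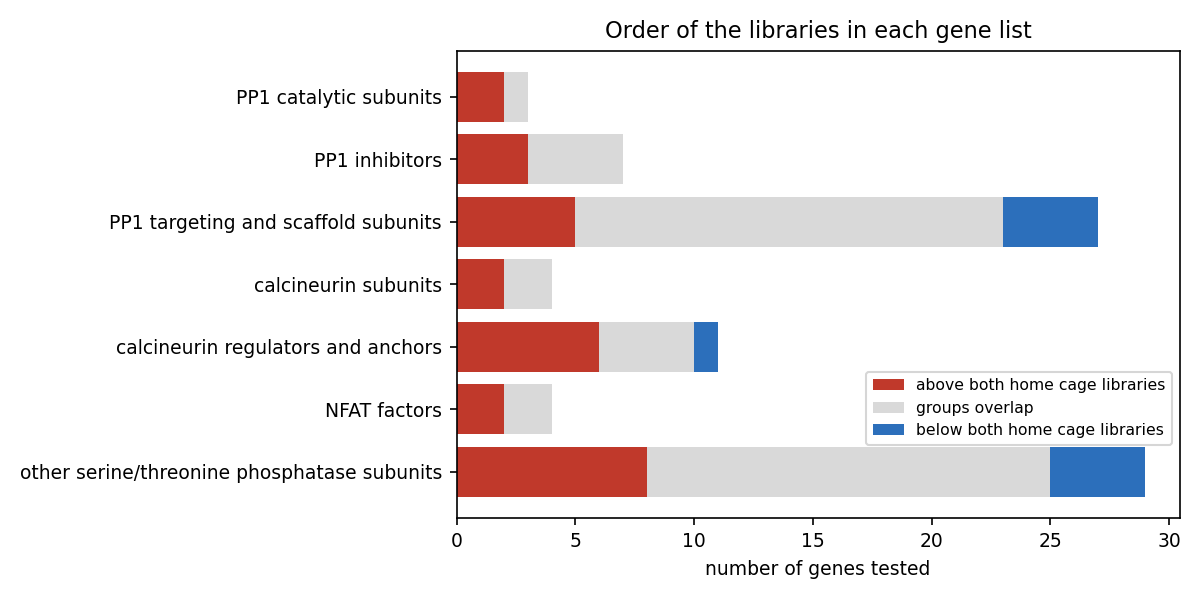
Number of genes in each phosphatase list whose 3 FC libraries all lay above both HC libraries (red), all below both (blue) or overlapped with them (grey). The PP1 catalytic subunits, PP1 inhibitors, calcineurin subunits and NFAT factors show red and grey alone, while the targeting subunits have 5 red and 4 blue. Red includes *Ppp1cc*, chosen by this difference, and *Nfatc1*, whose place was fixed by the filter on mean value. Of all genes tested, 20.2% lay above both HC libraries in every FC library and 16.1% lay below both.

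Across all genes tested, the log2 values most like those of *Ppp1cc* over the 5 libraries were those of *Cdkn2aip* (ENSMUSG00000038069), *Fam198b* (ENSMUSG00000027955) and *Rab15* (ENSMUSG00000021062), each with Pearson's r of 0.999. *Cdkn2aip* was at 21.8, 33.3 and 23.1 CPM in FC and at 10.02 and 6.96 CPM in HC. As for *Ppp1cc*, FC replicate 3 was its highest library and HC replicate 7 its lowest. Among the members r was 0.98 for *Ppp1ca*, 0.90 for *Ppp1r1a* and 0.87 for *Ppp3r1*, and with 5 libraries an r over 0.9 was reached by 1026 genes (7.57%). The r of *Ppp1ca* was above that of 99.3% of genes.

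Some markers of other cells also differed between the groups. For comparison, 20.2% of all genes tested lay above both HC libraries in every FC library and 16.1% lay below both. In sums over each list, astrocyte markers were at 633, 571 and 651 CPM in FC and 1315 and 1015 CPM in HC, with *Aldoc* the most abundant and 4 of 6 genes below both HC libraries. The median log2 fold change of the astrocyte markers was -0.80, and it became -0.41 without HC replicate 6 and -1.25 without HC replicate 7. Oligodendrocyte markers summed to 1672, 1062 and 2409 CPM in FC and 2341 and 4964 CPM in HC, with 3 of 6 genes lower. Their median of -1.03 became -1.43 without HC replicate 6 and -0.90 without HC replicate 7. Pallial glutamatergic markers, led by *Slc17a7*, summed to 200, 186 and 47.8 CPM in FC and 356 and 256 CPM in HC, with 3 of 6 lower and 1 higher. Their median log2 fold change of -0.73 became 0.016 without HC replicate 6 and -1.47 without HC replicate 7. Of the other lists, the median log2 fold change was 1.23 for *Drd1a* neurons (led by *Tac1*), -0.53 for central amygdala subpopulations (led by *Sst*, with *Tac2* at 0 in HC replicate 7), 0.48 for microglia (led by *Csf1r*) and -0.87 for endothelial and mural cells (led by *Rgs5*). Leaving out HC replicate 6 or HC replicate 7 gave medians of 0.64 and -0.10 for microglia, -0.57 and -1.17 for endothelial and mural cells, -1.19 and -0.76 for central amygdala subpopulations, and 0.82 and 1.28 for *Drd1a* neurons. The members are expressed by many of these cell types, and the part of the cell mixture in their values was not tested.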

How the data were processed

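*Drd2*-TRAP libraries were generated by the authors from ribosome-bound RNA with SMARTer and NexteraXT kits (minimum RNA integrity number 8.5) and sequenced. The submitters' processing notes list DESeq and mm8, and the study's methods name Tuxedo DESeq software. Which aligner was run, the annotation and the use of strand are not given in the sources used here. For 15093 genes the authors deposited 1 normalized signal per library, and a gene length. Within each library 100% of the values were whole multiples of 1 step, within 0.01 reads, taken as recovered reads (19605318 to 27937520 per library).

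The 13560 genes whose mean value was 1 or more were compared with limma 3.58.1 (trend, two-sided) on log2(value + 1), with Benjamini-Hochberg adjustment over all of them. On this scale the change of low genes is understated. edgeR 4.0.16 and DESeq2 1.42.0 were run on recovered reads as alternatives, beside other pseudocounts, filters and normalizations and leaving out 1 library at a time. Lengths below 0 (9 genes) were not used. Replicates are pools of 3 animals, and nothing else is stated on how independent they were.

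Members and lists were chosen with earlier results of these data known, and the length ranges after seeing the values. Named genes are all members, list genes whose groups do not overlap with an absolute log2 fold change over 1, *Ppp1r1b*, *Ppp3cc* and *Ppp3r2*, the most abundant gene of each marker list and the 3 genes with the highest r to *Ppp1cc*. *Drd2*, *Ppp1r11*, *Cabin1*, *Calm2* and *Nfatc2* were named after their values were seen. Some genes of the lists are not reported here by name. Promoter windows are from RefSeq (GRCm38.p6), whose build differs from mm8, and no coordinates of the deposited data were used with them.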

Additional observations from a re-analysis of the deposited data

How the results depend on the processing

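With 2 HC libraries, the count of genes past both cutoffs was 0 in limma and 1017 in DESeq2, and it ranged from 0 to 7956 when 1 library was left out (7956 without HC replicate 6, 3361 without HC replicate 7, 1 without FC replicate 3). A lone HC library is assumed to vary like the FC libraries. The log2 fold change of *Ppp1cc* was 1.80 in DESeq2 and 1.50 to 2.07 with 1 library left out, and is given with no test. The difference in its share of the paralogs was 0.99 percentage points per kb, 0.72 to 1.22 with 1 library left out, and 3.16 with values not divided by length. Of the other members, *Ppp1ca* and *Ppp1r1a* passed the cutoffs in DESeq2, which called 3.69% of all genes tested higher in FC and 3.81% lower. Over the members and alternatives, 10 values reversed. With 1 library left out, log2 fold changes ranged from -0.40 to 0.22 for *Ppp1cb* (0.07 without FC replicate 2), -0.077 to 0.56 for *Ppp1r2*, -0.93 to 0.16 for *Ppp1r9a*, -0.80 to 0.34 for *Ppp1r9b*, -0.36 to 0.46 for *Ppp3ca* (-0.12 without FC replicate 3, -0.06 without FC replicate 4) and -0.16 to 0.55 for *Ppp3cb*. Quantile normalization turned *Ppp3ca* to -0.54; the cause was not tested. The median of all genes was 0.08 in limma, -0.11 in DESeq2, -0.07 in edgeR, 0.23 without HC replicate 6 and -0.03 without HC replicate 7. *Ppp1ca*, *Ppp1cc*, *Ppp1r1a* and *Ppp3r1* stayed above these medians under each of these settings. That is no separate support, since these 4 were picked out because every FC library lay above both HC libraries. *Ppp1cc* was also chosen by this contrast. No paired analysis was possible because the groups share no replicate numbers. A floor of 3 reads was at most 0.158 CPM in a library.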
